A study of Mus musculus with 34 samples.

Results

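Intermediate filaments are rope-like polymers of proteins that share a central coiled-coil rod, and 10 of their genes are described here across 28 mouse RNA-seq libraries. The genes were taken by symbol from the 37310 genes counted in every library. They are the neurofilament subunits Nefl, Nefm and Nefh, alpha-internexin (Ina), peripherin (Prph), nestin (Nes), vimentin (Vim), and the lamins Lmna, Lmnb1 and Lmnb2. The cells are CAD cells, a mouse neuronal line of catecholaminergic origin that extends processes when cultured without serum.

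In mature neurons the light, medium and heavy neurofilament subunits assemble together with alpha-internexin, and neurons with peripheral projections add peripherin. The long phosphorylated tail of the heavy subunit is known for spacing the filaments in axons. Vimentin and nestin are the filaments of dividing progenitors, and are usually replaced by neuronal filaments as neurons mature. Lamins form the meshwork under the inner nuclear membrane. The B-type lamins, Lmnb1 and Lmnb2, keep a farnesyl anchor, while Lmna gives lamins A and C, whose amounts differ widely between tissues.

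The libraries fall into 13 groups in 3 experiments, and serum means medium with 10% fetal bovine serum. Wild type (WT) and a line with the label mir-138 DKO, for double knockout, made up the first experiment, and each was sampled in duplicate libraries in serum and 1 day after serum was withdrawn. WT cells alone made up the second, as 3 libraries in serum and 3 taken at 4 days of withdrawal. All 14 libraries of the third carry the label DKO and come in pairs. For 1 pair, kept in serum, the labels name no transfection. The other pairs received pUC19 DNA, a miR-138 mimic or a miR-137 mimic, sampled in serum or after 2 days of withdrawal. Mimics were used at 3 nM, and pUC19 is plasmid DNA rather than a mimic of another sequence. The labels do not say how many clones stand behind the label DKO. They also do not say that replicates were separate cultures, so a p-value here reflects spread between libraries that may be technical. The WT libraries at 4 days are WT by title and design text, but DKO by their genotype field, and were analysed as WT.

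Libraries of the first experiment had 22359075 to 41505181 reads assigned to genes. Those of the second had 19900317 to 28631969 and those of the third 12740836 to 25582125. Levels are CPM, read counts scaled to a common library total within each experiment, so a level is compared only within its experiment and its gene. Mir138-1, a hairpin gene that the label DKO concerns, had 0.558 to 1.37 CPM in WT and 5.93 to 10.9 CPM in the libraries labelled DKO, both from the first experiment. In the third experiment it stood at 0.945 to 2.88 CPM, and Mir138-2 had 0 reads throughout. The interval deleted was not given in the sources used here. The reads over Mir138-1 do not bear out its loss, so DKO is used below as a label only. A list of 9 markers of sympathetic neuroblasts summed in the first experiment to 2238 to 2742 CPM in WT libraries and 1296 to 1497 CPM in those labelled DKO. The sums were 2138 to 2588 CPM in the second experiment, all WT, and 1192 to 2105 CPM in the third, all labelled DKO. Th, which is on this list, had 0 reads in the libraries labelled DKO in serum of the first experiment. Markers of other cells summed to 1.86 to 18.7 CPM for glia, 0.559 to 38.1 CPM for fibroblasts and 10.3 to 40.4 CPM for endothelium. Of the 3 endothelial markers, Cdh5 reached at most 1.70 CPM and Kdr at most 0.360 CPM in any library. Most of the endothelial sum thus came from the remaining marker. Epithelial markers summed to at most 0.438 CPM and those of skeletal muscle to at most 0.762 CPM. Blood markers summed to at most 2.29 CPM, with reads of Cd68 in every group and 0 reads of Ptprc and Hbb-bs. In bulk RNA, fewer cells of a type and less RNA per cell cannot be told apart.

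Of the 3 neurofilament genes only Nefh passed the filter on low counts. Nefl, the light chain, had 24 reads in all 28 libraries together and no more than 4 in any. Nefm, the medium chain, had 34 reads together, spread over 7 libraries. Its highest level was 0.484 CPM, in a WT library in serum of the second experiment. Both failed the filter on low counts in all 3 experiments, and the level that 3 reads correspond to was 0.0723 to 0.235 CPM. Nefh, the heavy chain, was read at up to 508 CPM in WT cells. The other 8 genes passed the filter in every experiment.

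**Figure D1:**
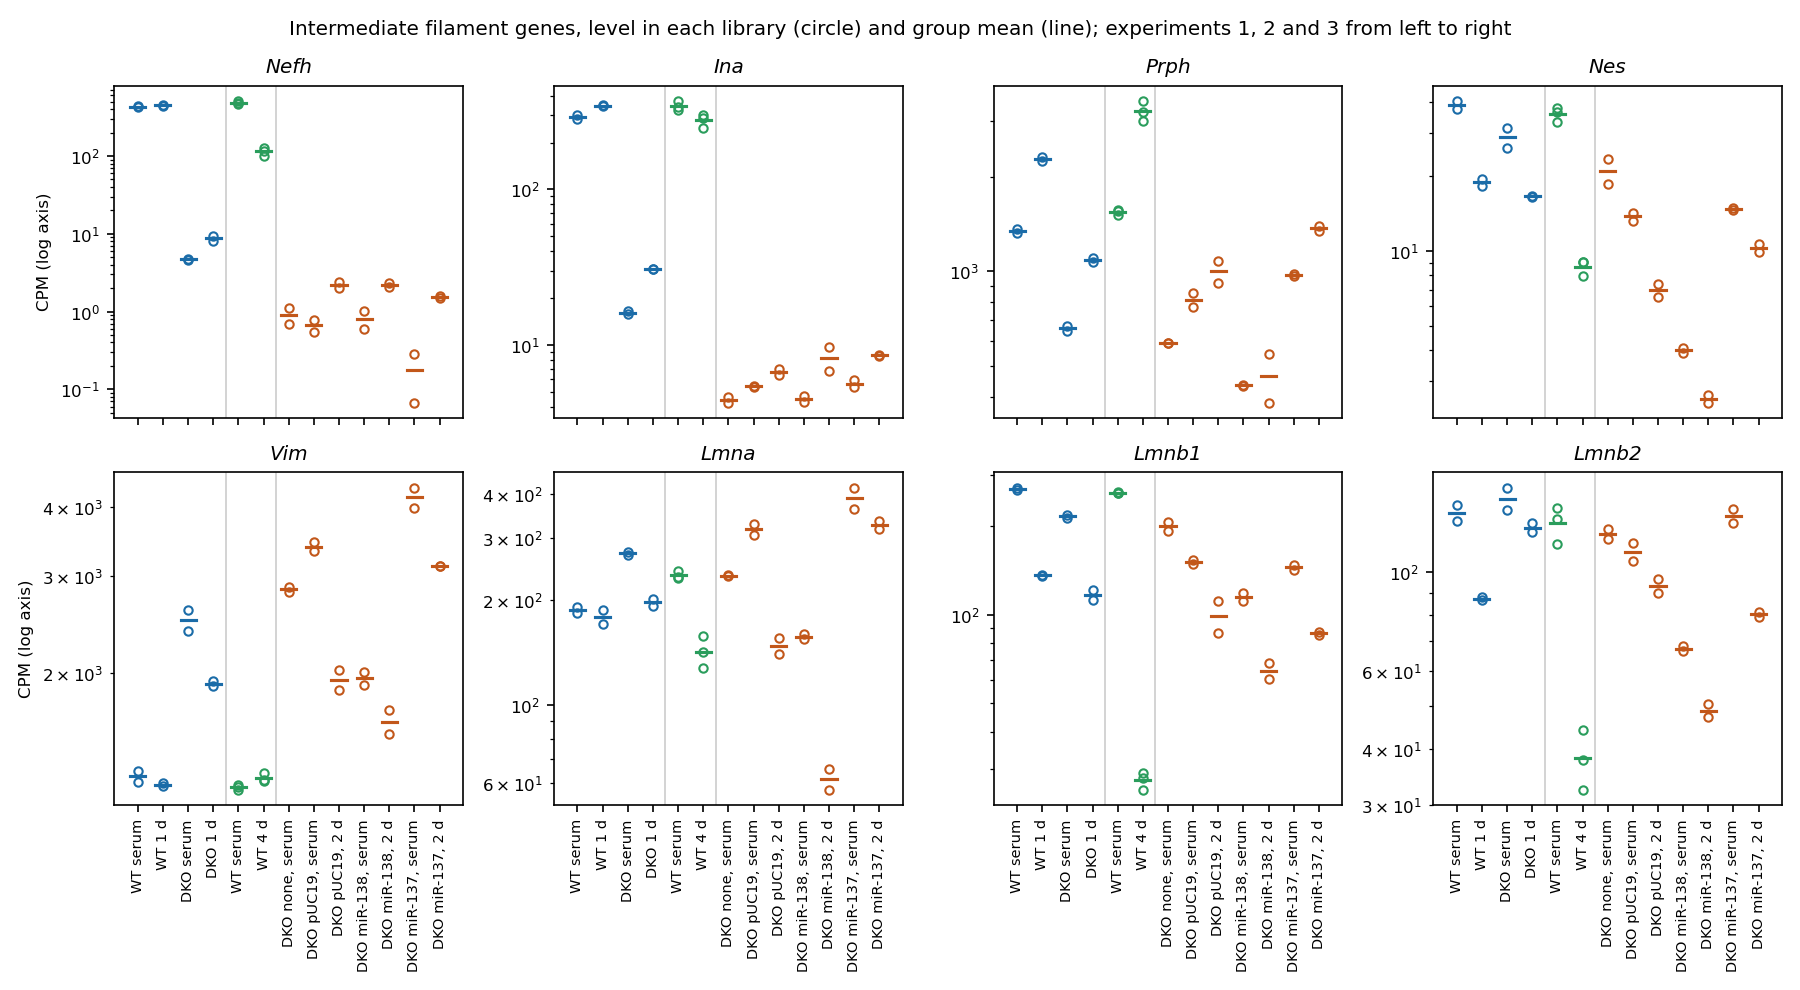
Level of the 8 measured intermediate filament genes in each library (circles) with the group mean (line), in CPM on a log axis that is separate for each gene. Grey lines part the 3 experiments, which were scaled separately. In the first experiment (left) Nefh and Ina stand low in both groups labelled DKO, and in the second (middle) Lmnb1 stands low at 4 days, at 25.5 to 29.1 CPM.

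Cells labelled DKO carried far less RNA of the 2 neuronal filaments Nefh and Ina than WT cells, less Prph by a smaller margin, and more Vim. In serum, 7 of the 8 measured genes passed the test at a false discovery rate of 0.05, 2 higher and 5 lower. Of all 13630 tested genes 40.7% passed there, 19.2% higher and 21.5% lower. At 1 day after withdrawal 6 of 8 passed, 2 higher and 4 lower, where 44.9% of genes did (21.9% higher and 23% lower). Of the 9 sympathetic neuroblast markers, 8 were lower in serum (median log2 fold change -1.42), and their part in the difference was not tested.

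Nefh stood at 434 and 430.1 CPM in WT cells in serum, and at 4.63 and 4.74 CPM in cells labelled DKO. At 1 day it stood at 455 and 441 CPM in WT cells and at 8.11 and 9.47 CPM in those labelled DKO. The groups were far apart and each pair of libraries lay close together. The fold change was 92.3-fold lower in serum (log2 -6.53 ± 0.09 SE, adjusted p = 1.77e-15) and 50.9-fold lower at 1 day (adjusted p = 3.25e-15).

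Ina, which co-assembles with neurofilaments, stood at 283 and 302 CPM in WT cells in serum against 16.4 and 15.8 CPM in cells labelled DKO. At 1 day it stood at 346 and 345 CPM against 30.9 and 30.6 CPM. It was 18.1-fold lower in serum (log2 -4.18 ± 0.08, adjusted p = 2.16e-14) and 11.2-fold lower at 1 day. Prph, a filament of peripheral and sympathetic neurons, was lower by less. Its levels were 1363 and 1324 CPM in WT cells in serum against 671 and 647 CPM in those labelled DKO, a log2 difference of -1.03 ± 0.05 (adjusted p = 5.74e-10). At 1 day the difference was -1.06.

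Vim stood at 1275 and 1333 CPM in WT cells in serum and at 2391 and 2607 CPM in cells labelled DKO, with no overlap. The log2 fold change was 0.94 ± 0.05 in serum and 0.61 at 1 day. Fibroblast markers, a type in which vimentin is abundant, summed to 1.46 to 1.49 CPM in WT cells in serum and 8.15 to 8.80 CPM in those labelled DKO. Of the 5 markers 3 were measured and 2 were higher, where 19.2% of all genes were. The other measured marker, Col1a1, did not pass, at a mean of 1.07 CPM in WT cells and 0.558 CPM in those labelled DKO. Lum had 0 reads in WT cells in serum, and the part of such cells in the result was not tested. Nes, the progenitor filament, was lower in serum, at 26.1 and 31.3 CPM against 40.2 and 37.2 CPM in WT (log2 -0.43 ± 0.12, adjusted p = 0.0086). That call was lost without the first WT library in serum (adjusted p = 0.0873). At 1 day its difference of -0.18 did not pass (95% interval -0.45 to 0.08).

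The lamins differed between the lines by less than 1 log2 unit. Lmna stood at 184 and 191 CPM in WT cells in serum against 269 and 273 CPM in those labelled DKO (log2 0.53 ± 0.07, adjusted p = 1.64e-05). At 1 day the difference of 0.14 did not pass (95% interval -0.0037 to 0.28). Lmnb1 was lower in cells labelled DKO by a log2 difference of -0.31 in serum and -0.22 at 1 day, and the second call was lost without either WT library at 1 day or without the second library labelled DKO (adjusted p = 0.15, 0.0677 and 0.3). Lmnb2 did not pass in serum (0.11, 95% interval -0.06 to 0.27) and was higher at 1 day, at 123 and 129 CPM against 87.8 and 86.6 CPM (0.53, adjusted p = 6.04e-05).

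A set of 4 promoters from the RefSeq table of assembly GRCm38.p6 is printed, since they belong to neuronal filament genes that passed in opposite directions in WT cells at 4 days (Ina lower and Prph higher) and to genes whose group levels moved together (Vim and Lmna). Each runs from 250 bases before to 50 after the gene's start, 5′ to 3′ on the gene's strand, with motif matches in capitals. The table held 8 promoters for 6 of the 10 genes, and had none for Nefl, Nefm, Nefh and Lmnb1. They lie at chr19:47014431-47014730 on the plus strand for Ina, chr15:99054924-99055223 (plus) for Prph, chr2:13574061-13574360 (plus) for Vim and chr3:88503303-88503602 (minus) for the first listed start of Lmna.
Ina: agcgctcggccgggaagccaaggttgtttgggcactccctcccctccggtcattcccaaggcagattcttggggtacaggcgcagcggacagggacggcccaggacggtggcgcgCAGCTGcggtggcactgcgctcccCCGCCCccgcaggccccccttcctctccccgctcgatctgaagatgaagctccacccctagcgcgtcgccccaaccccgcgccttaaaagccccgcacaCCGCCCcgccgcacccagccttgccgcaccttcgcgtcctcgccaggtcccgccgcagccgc
Prph: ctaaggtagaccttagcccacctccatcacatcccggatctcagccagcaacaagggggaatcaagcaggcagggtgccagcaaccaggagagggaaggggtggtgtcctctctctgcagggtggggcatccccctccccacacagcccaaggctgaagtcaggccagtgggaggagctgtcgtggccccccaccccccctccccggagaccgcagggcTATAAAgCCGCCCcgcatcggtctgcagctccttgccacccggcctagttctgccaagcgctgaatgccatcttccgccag
Vim: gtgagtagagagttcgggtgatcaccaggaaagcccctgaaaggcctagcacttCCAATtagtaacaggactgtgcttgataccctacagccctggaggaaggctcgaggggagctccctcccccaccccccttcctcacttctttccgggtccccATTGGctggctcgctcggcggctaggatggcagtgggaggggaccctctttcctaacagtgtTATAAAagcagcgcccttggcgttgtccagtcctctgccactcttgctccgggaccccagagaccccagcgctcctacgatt
Lmna: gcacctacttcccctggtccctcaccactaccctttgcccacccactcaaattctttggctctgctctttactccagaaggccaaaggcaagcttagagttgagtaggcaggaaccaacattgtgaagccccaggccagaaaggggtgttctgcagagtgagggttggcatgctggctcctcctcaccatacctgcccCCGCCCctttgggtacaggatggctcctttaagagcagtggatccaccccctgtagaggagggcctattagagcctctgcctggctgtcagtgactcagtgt

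Motifs were searched on both strands. TATAAA was found at -31 in Prph and -32 in Vim, counted from the start to the first base of the match, and occurs in 13.6% of 32851 promoters of the same length. GGGCGG, a GC box, was found in Ina at -111 and -12, in Prph at -24 and in Lmna at -52, in each case on the opposite strand, and occurs in 35.7% of promoters. CCAAT was found in Vim at -196 and, on the opposite strand, at -94 (37.4% of promoters), and CAGCTG, an E-box, in Ina at -135 (16.3%). GGACAGC (6.6% of promoters) and CAGCACC (7.1%) had no match in these 4 windows. The second listed start of Lmna, not printed, had CAGCACC at -35 and CCAAT at -131. No match overlapped another, and a match is a description of the sequence only.

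In the first experiment, 1 day of serum withdrawal of WT cells raised Prph and Ina and lowered Nes, Lmnb1 and Lmnb2. In the second, Prph was higher at 4 days, and Nefh, Ina, Nes, Lmna, Lmnb1 and Lmnb2 were lower. Each experiment had its own serum libraries, so day and experiment cannot be told apart. At 1 day 5 of 8 genes passed, 2 higher and 3 lower, where 40.7% of all genes did (20.4% higher and 20.3% lower). At 4 days 7 of 8 passed, 1 higher and 6 lower. That share is to be read against 70.9% of 13283 genes passing in the same comparison, 36.2% higher and 34.7% lower.

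Of the 8 genes Prph alone was higher at 4 days, at 3214, 3000.1 and 3472 CPM against 1554, 1506 and 1563 CPM in serum. The groups did not overlap and the log2 fold change was 1.07 ± 0.07 (adjusted p = 1.77e-08). At 1 day the 2 WT libraries stood at 2300.4 and 2244 CPM, a change of 0.76. Nefh did not change detectably at 1 day (0.05, 95% interval -0.09 to 0.19) and fell at 4 days from 508, 476 and 470.0 CPM to 129, 99.9 and 117 CPM. That is a 4.20-fold decrease (log2 -2.07 ± 0.09, adjusted p = 2.68e-10). The peripherin and heavy neurofilament genes thus moved in opposite directions in the same 6 libraries.

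Ina stood at 336, 322 and 369 CPM in serum and 289, 249.3 and 299 CPM at 4 days, a small decrease with no overlap (log2 -0.30, adjusted p = 0.00676). At 1 day it was higher by 0.24 (adjusted p = 0.00734), a call lost without the first WT library in serum or without either WT library at 1 day (adjusted p = 0.107, 0.0812 and 0.0516). Nes fell from 37.7, 33.1 and 36.2 CPM to 9.03, 9.07 and 7.92 CPM at 4 days (log2 -2.04) and by 1.03 on the log2 scale at 1 day. Vim, by contrast, stood at 1249.8, 1235 and 1256 CPM in serum and 1283, 1277 and 1325 CPM at 4 days. Its difference of 0.05 did not pass at 4 days (95% interval -0.09 to 0.19), nor did that of -0.05 at 1 day (-0.16 to 0.06). Fibroblast markers summed to at most 1.56 CPM in serum and at most 8.98 CPM at 4 days. All 3 measured markers were higher, where 36.2% of all genes were.

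Both B-type lamins fell at 4 days, and Lmnb1 fell furthest of the 8 genes. It stood at 261, 259 and 260.1 CPM in serum and at 25.5, 29.1 and 28.0 CPM at 4 days, which is 9.44-fold lower (log2 -3.24 ± 0.08, adjusted p = 2.89e-12). In the first experiment it fell at 1 day from 271 and 267 to 136.7 and 136.0 CPM (-0.98). Lmnb2 stood at 116, 132 and 139.5 CPM in serum and at 32.4, 37.7 and 44.2 CPM at 4 days (-1.76). Lmna fell by less, from 231, 233 and 242 to 157, 128 and 142 CPM (-0.73 ± 0.08), and its difference of -0.07 at 1 day did not pass (95% interval -0.21 to 0.07). For each of the 3 lamins the libraries at 4 days lay below all of the serum libraries. Of all genes 34.7% passed as lower there, and the share without overlap was not computed.

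**Figure D2:**
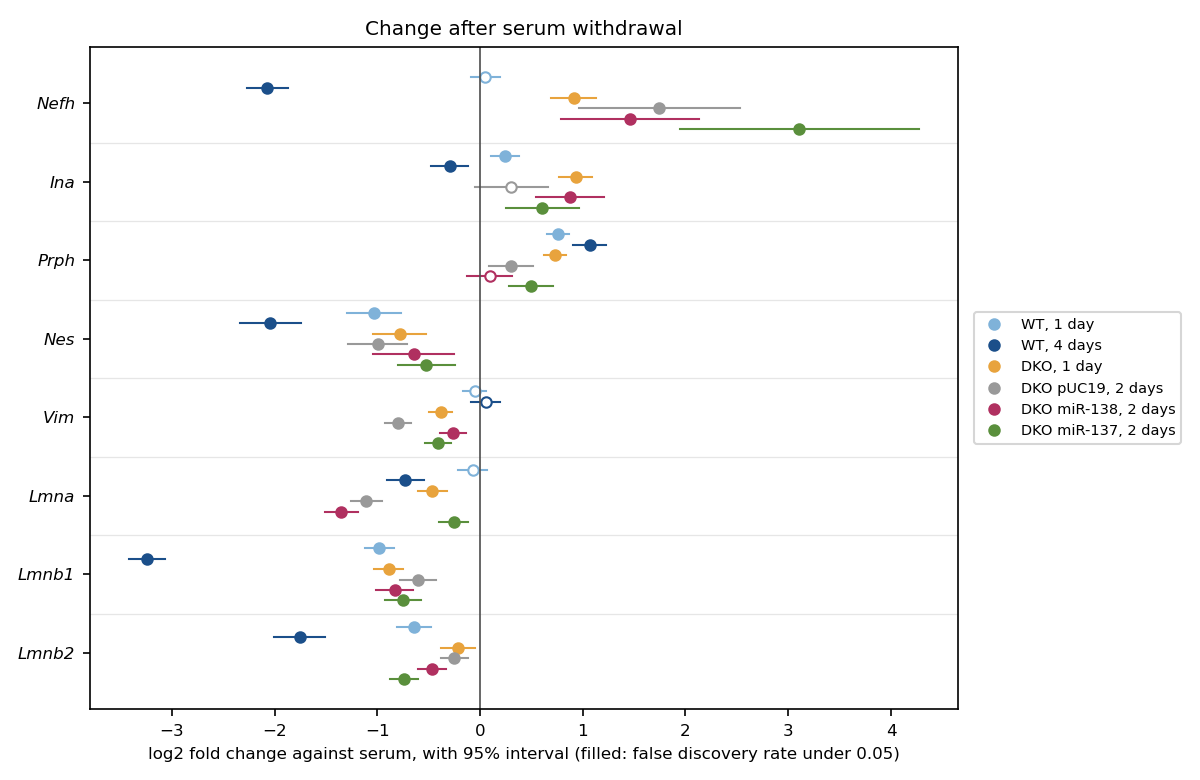
Log2 fold change after serum withdrawal for each gene, with its 95% interval, in 6 comparisons. Filled symbols passed a false discovery rate of 0.05. Lmnb1 lies left of zero in all 6, reaching -3.24 in WT cells at 4 days, and Nefh lies left of zero only there.

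In cells labelled DKO, 1 day without serum raised Nefh, Ina and Prph and lowered Nes, Vim and all 3 lamins. All 8 genes passed, 3 higher and 5 lower, where 40.3% of all genes did (19.9% higher and 20.4% lower). Nefh rose 1.88-fold (log2 0.91, adjusted p = 9.00e-06) and Ina 1.91-fold (0.93, adjusted p = 4.67e-07), while both stayed far under the WT level. Vim fell by 0.38, Lmna by 0.47, Lmnb1 by 0.89 and Lmnb2 by 0.22 on the log2 scale. The call for Lmnb2 (adjusted p = 0.0351) was lost without either library at 1 day, without the first in serum, with reads counted on both strands and with the compared libraries fitted alone (adjusted p = 0.179, 0.12, 0.155, 0.0549 and 0.0818).

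The change at 1 day differed between the lines for 5 of 8 genes, 3 in the positive and 2 in the negative direction, where 9.72% of all genes did (5.36% and 4.37%). The change in cells labelled DKO exceeded that in WT cells by 0.86 for Nefh (adjusted p = 0.000493), 0.69 for Ina and 0.43 for Lmnb2. It was below that in WT cells for Vim (-0.33) and Lmna (-0.39). Only Nefh and Ina kept this call whichever single library of the first experiment was left out.

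In the third experiment the cells with no named transfection and those given pUC19 were both in serum. Prph was higher with pUC19 by a log2 difference of 0.45, Vim by 0.25 and Lmna by 0.44, and Nes and Lmnb1 were lower by -0.61 and -0.40. These 5 of 8 passed, 3 higher and 2 lower, where 26.2% of all genes did (10.7% higher and 15.5% lower). The titles of the cells without a named transfection read DKO_2 and those of the others DKO, so transfection and this unexplained mark cannot be told apart. The same mark is in all titles of the second experiment, which read WT_2, and in none of the first. The call for Prph was lost without the second pUC19 library in serum (adjusted p = 0.0508).

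In the pUC19 cells 2 days without serum lowered Lmna, Vim, Nes and the B-type lamins and raised Nefh. In all 7 of 8 genes passed, 2 higher and 5 lower, where 59.7% of all genes did (28.4% higher and 31.3% lower). Lmna fell from 307 and 329 to 140.2 and 155 CPM (log2 -1.11 ± 0.07, adjusted p = 9.10e-11), and Vim from 3323 and 3448 to 1864 and 2026 CPM (-0.80 ± 0.06). Nes fell by 1.00 on that scale, Lmnb1 by 0.61 and Lmnb2 by 0.25. Leaving out the second pUC19 library in serum ended the call for Lmnb2 (adjusted p = 0.0636). Nefh rose from 0.546 and 0.785 to 2.01 and 2.38 CPM (1.75, adjusted p = 0.000476), on 10 reads in each serum library. Prph rose by 0.30, a call lost with DESeq2 (adjusted p = 0.0832) and without the first pUC19 library in serum or the second at 2 days (adjusted p = 0.119 and 0.193). The fibroblast markers, mostly Dcn, summed to 7.07 to 7.43 CPM with pUC19 in serum and 26.2 to 28.2 CPM at 2 days. The part of such cells in the change of Vim was not tested.

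The mimics were compared with pUC19 at matched time. Their arms are not named in the labels. The sequences of the mature miRNAs named miR-138-5p and miR-137-3p in the RefSeq table (GRCm38.p6) are shown because the seed, bases 2 to 8 in capitals, is the part by which a miRNA pairs with its targets, and it differs between them.
miR-138-5p: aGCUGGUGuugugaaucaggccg
miR-137-3p: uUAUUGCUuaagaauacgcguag

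With the miR-138 mimic, 6 of the 8 genes were lower than with pUC19 and none was higher, both in serum and at 2 days. The 6 were Prph, Nes, Vim, Lmna, Lmnb1 and Lmnb2. In serum 56% of all 12655 genes passed, 28.7% as higher and 27.3% as lower, and at 2 days 62% passed, 30.9% as higher and 31.1% as lower. Nefh and Ina did not pass at either time.

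Nes stood at 14.3 and 13.3 CPM with pUC19 in serum and at 4.10 and 3.89 CPM with the miR-138 mimic (log2 -1.79 ± 0.14, adjusted p = 1.89e-09). At 2 days it stood at 6.55 and 7.35 against 2.64 and 2.45 CPM (-1.44). The groups did not overlap at either time.

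Lmna stood at 307 and 329 CPM with pUC19 in serum and at 154 and 159 CPM with the mimic, 2.03-fold lower (adjusted p = 3.85e-10). At 2 days it was 140.2 and 155 against 57.4 and 65.8 CPM, 2.40-fold lower (adjusted p = 5.68e-11). Lmnb2 fell by 0.72 and 0.94 on the log2 scale in serum and at 2 days, and Lmnb1 by 0.40 and 0.62. All 3 lamin genes therefore stood lowest of the 7 groups of this experiment with the miR-138 mimic at 2 days.

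Prph stood at 769 and 853 CPM with pUC19 in serum and 437 and 432 CPM with the mimic (-0.90 ± 0.10). At 2 days the values were 921 and 1079 against 382 and 548 CPM (-1.11), and the 2 mimic libraries lay further apart than those of any other group for this gene in relation to their mean. Vim was lower by a log2 difference of -0.79 in serum and -0.25 at 2 days, at 2008 and 1909.5 CPM and then 1557 and 1716 CPM. The difference for Ina was -0.27 in serum (95% interval -0.62 to 0.08) and 0.31 at 2 days (-0.03 to 0.64), and without the second mimic library at 2 days the latter passed (0.52, adjusted p = 0.0115). Nefh had 15 and 27 reads with the mimic in serum, and its intervals (-0.57 to 1.18 in serum, -0.59 to 0.63 at 2 days) are wide.

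With the miR-137 mimic the filament genes that passed were mostly higher than with pUC19. In serum 5 of 8 passed, 4 higher and 1 lower, where 45.6% of all genes did (23.1% higher and 22.5% lower). At 2 days again 5 passed, 4 higher and 1 lower, where 42.7% did (20.5% higher and 22.2% lower). Both mimics were compared with the same pUC19 libraries, and the difference between the mimics was not tested.

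Lmna stood at 319 and 335 CPM with this mimic at 2 days against 140.2 and 155 CPM with pUC19, 2.21-fold higher with no overlap (log2 1.15 ± 0.07, adjusted p = 2.09e-10). In serum it was 419 and 363 against 307 and 329 CPM (0.30), a call lost without the first miR-137 library (adjusted p = 0.0658). Vim was higher by 0.30 in serum and by 0.68 at 2 days, at 4331 and 3984 and then 3126 and 3124 CPM. Fibroblast markers summed to 14.6 to 15.4 CPM against 26.2 to 28.2 CPM at 2 days, with 3 of 5 lower, where 22.2% of all genes were. The part of such cells in the result was not tested. Nes was at 10.7 and 9.88 CPM against 6.55 and 7.35 CPM at 2 days (0.57, adjusted p = 0.00356), and in serum its difference of 0.09 did not pass (95% interval -0.17 to 0.35).

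Prph was higher with the miR-137 mimic by 0.26 in serum and 0.46 at 2 days. The serum call (adjusted p = 0.0447) was lost with DESeq2 (adjusted p = 0.166), without either miR-137 library (0.155 and 0.108) and without the first pUC19 library (0.271). Lmnb2 was higher in serum (0.27) and lower at 2 days (-0.21), and the latter call was lost without the second miR-137 library or the first pUC19 library at 2 days (adjusted p = 0.0943 and 0.118). Lmnb1 did not pass in serum (-0.06, 95% interval -0.23 to 0.11) or at 2 days (-0.20, -0.38 to -0.02). Nefh in serum rested on 1 and 4 reads with the mimic against 10 and 10. Its log2 difference of -1.86 (adjusted p = 0.026) was lost without the first miR-137 library (-1.16, adjusted p = 0.242) or the second pUC19 library (adjusted p = 0.117). Ina differed by 0.05 in serum (-0.32 to 0.43) and 0.36 at 2 days (0.02 to 0.70), neither past the threshold.

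**Figure D3:**
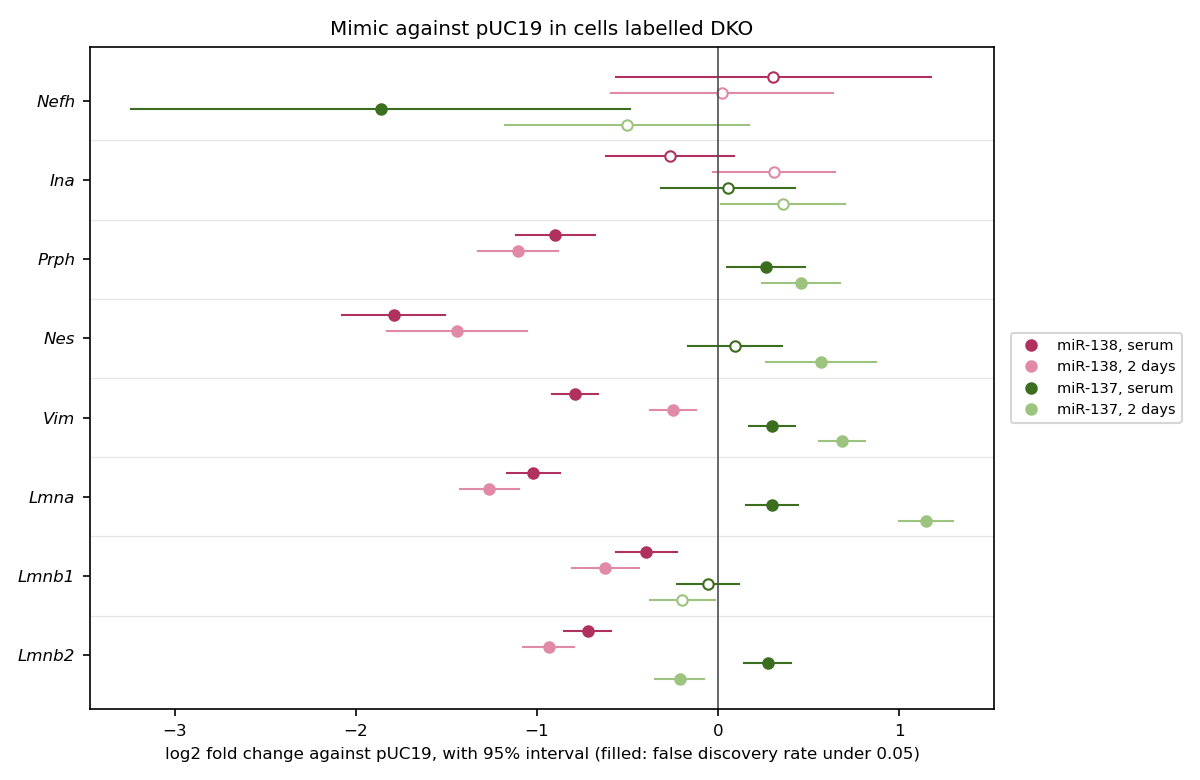
Log2 fold change of each gene with the miR-138 mimic (reds) or the miR-137 mimic (greens) against pUC19 in cells labelled DKO, in serum and 2 days after withdrawal, with 95% intervals. Filled symbols passed a false discovery rate of 0.05. From Prph to Lmna the miR-138 symbols lie left of zero and the miR-137 symbols right of it, furthest apart for Lmna at 2 days (-1.26 and 1.15).

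From serum to 2 days, 7 of 8 genes passed with the miR-138 mimic (2 higher, 5 lower) and 8 of 8 with the miR-137 mimic (3 higher, 5 lower). Of all genes 63.3% passed with the former (31.1% higher and 32.2% lower) and 65.8% with the latter (33.2% higher and 32.6% lower). The step differed from that with pUC19 for Vim alone with the miR-138 mimic (0.54, adjusted p = 0.000104), where 27.8% of genes differed (13.3% in the positive and 14.5% in the negative direction). With the miR-137 mimic it differed for Vim (0.39), Lmna (0.85, adjusted p = 5.03e-06) and Lmnb2 (-0.49), where 23.3% of genes did (11.9% and 11.4%). Lmna fell by 1.35 on the log2 scale with the miR-138 mimic, 1.11 with pUC19 and 0.26 with the miR-137 mimic over this step, and the last call was lost without the first miR-137 library in serum (adjusted p = 0.104).

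The order of group levels within an experiment is described for the 8 measured genes. The share of all genes with groups as clear of overlap was not computed. In the first, WT at 1 day stood highest and the cells labelled DKO in serum lowest for Nefh, Ina and Prph. Vim ran the other way, with the cells labelled DKO in serum highest and WT at 1 day lowest. The neighbours that overlapped there were WT at 1 day and in serum for Lmna, and WT and the cells labelled DKO in serum for Lmnb2. In the third, overlaps were most frequent for Nefh and Ina.

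Likeness across the 13 group means, each experiment centred on its own mean, is given as Pearson's r with no test, since the points share experiments and a cell line. The r was 0.957 for Nefh and Ina, 0.878 for Lmnb1 and Lmnb2, 0.89 for Nes and Lmnb2 and 0.84 for Vim and Lmna. For Nefh and Ina the largest gap was that between the lines in the first experiment (log2 -6.53 and -4.18 in serum). In WT cells at 4 days Nefh changed by -2.07 and Ina by -0.30. In the third experiment Nefh stood at only 0.0665 to 2.38 CPM. Nefh and Vim ran in opposite directions (-0.687). Among 10707 genes with at least 5 CPM in a group, those most like Nefh were Tmem28 (0.971), Cabp1 (0.958) and Ina itself. Tmem28 also led for Ina (0.983), ahead of Plppr5 (0.979) and Ppp2r2c (0.978). Prph was most like Dtx4 (0.965), Slc39a6 (0.952) and Irf2bpl (0.945), and Nes most like Nsd2 (0.976), Baz1b (0.959) and Stk4 (0.958). Tjap1 (0.935) and Aspscr1 (0.921) were among the genes most like Vim, and Lmna was most like Bag3 (0.943), a co-chaperone of filament turnover, Brd2 (0.936) and Lrrfip2 (0.934). The B-type lamins were most like Nasp (0.986), Mrpl1 (0.985) and Wdhd1 (0.984) for Lmnb1, and Tmpo (0.991), Ndc1 (0.99) and Rhno1 (0.989) for Lmnb2. Tmpo encodes lamina-associated polypeptides that bind lamins, and Ndc1 a membrane protein of the nuclear pore.

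The lamina partners, proteins that bind lamins or anchor the lamina, were lower with the miR-138 mimic in most cases and more often higher than lower in cells labelled DKO. Of 14 listed 13 were measured. In cells labelled DKO against WT 6 were higher and none lower in serum, where 19.2% of all genes were higher and 21.5% lower (median log2 fold change 0.22 against -0.01 over all genes). Among the 6 were Tor1aip1, a lamin-binding membrane protein (0.82), Lbr, the lamin B receptor (0.34), and Syne3 (1.23). At 4 days in WT cells 4 were higher and 5 lower (median 0.15 against 0.04), near the shares of all genes there (36.2% higher and 34.7% lower). Tmpo fell by 2.62 and Banf1, a chromatin-bridging partner of the lamina, by 2.38, while Sun1, which links the lamina to the cytoskeleton, rose by 0.82. With the miR-138 mimic 10 were lower and 2 higher in serum (median -0.21 against 0.03), where 27.3% of all genes were lower and 28.7% higher. At 2 days 8 were lower and 2 higher (median -0.38), against 31.1% and 30.9% of all genes. Tor1aip1 was lower by -1.44 and -1.05, Tmpo by -1.06 and -1.34, and Ankle2 by -0.58 and -0.65. With the miR-137 mimic 5 were higher and 2 lower in serum, where 23.1% of all genes were higher and 22.5% lower. At 2 days 1 was higher and 4 lower, against 20.5% and 22.2% of all genes.

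**Figure D4:**
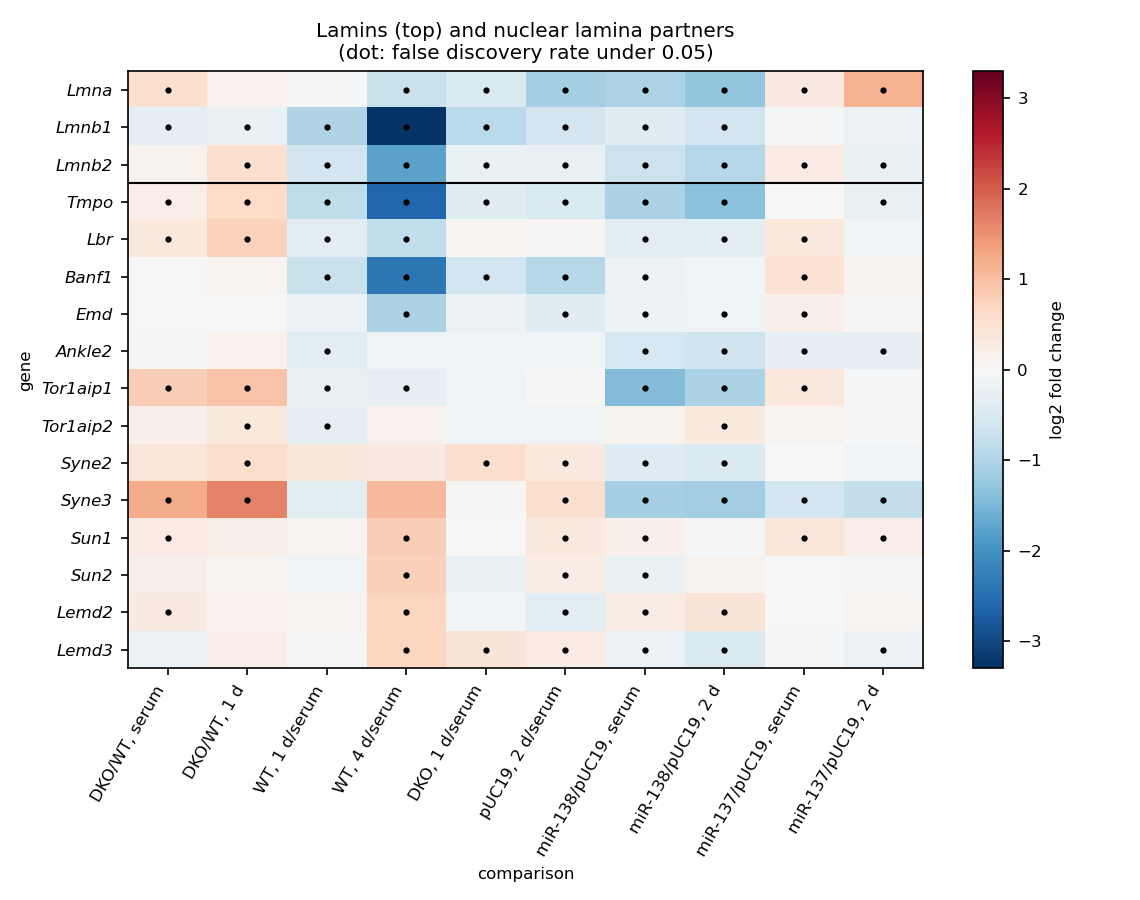
Log2 fold change (colour, blue lower and red higher) of the 3 lamins, above the line, and of the 13 measured lamina partners in 10 comparisons. Dots mark a false discovery rate under 0.05. Tmpo (-2.62) and Banf1 (-2.38) are the darkest blue among the partners in WT cells at 4 days, the column where Lmnb1 reaches -3.24.

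Of the enzymes that trim and modify the lamin tail all 5 were measured, and 3 were lower in WT cells at 4 days: Icmt (-0.63), Zmpste24, which cuts prelamin A (-0.61), and Rce1 (-0.52). Of all genes 34.7% were lower there. In pUC19 cells at 2 days all 5 were lower, with a median of -0.22 against -0.02 over all genes, of which 31.3% were lower. Zmpste24 was higher in cells labelled DKO in serum (0.56).

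Among other intermediate filament genes, 6 of 19 were measured in the first experiment, and none of the listed keratins was. Synm, synemin, a large partner of vimentin and desmin, was lower in cells labelled DKO by a log2 difference of -0.62 in serum and -1.45 at 1 day. In WT cells at 4 days 3 of 4 measured were higher: Sync, syncoilin (3.55), Synm (0.88) and Iffo1 (1.08). Of all genes 36.2% were higher in that comparison. Sync stood at 2.01 to 3.29 CPM in serum and 25.8 to 31.0 CPM at 4 days. Of the plakins, which tie filaments to other structures, 3 of 4 measured were higher at 4 days, against the same 36.2% of all genes: Plec (1.12), Dst (1.14) and Evpl (3.57). Evpl rested on 20 reads in the serum libraries together, at 0.224 to 0.388 CPM, and stood at 1.09 to 5.09 CPM at 4 days. Plec was lower in cells labelled DKO in serum (-0.41) and Dst higher (0.66). With the miR-138 mimic in serum Plec (-0.44) and Macf1 (-0.54) were lower, and with the miR-137 mimic Plec was higher by 0.29 in serum and 0.73 at 2 days.

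The list of kinases that phosphorylate filaments holds 13 genes, with Cdk5r2 and Cdk5r1, the neuronal activators of Cdk5, counted among them. Both activators were lower in cells labelled DKO in serum, by a log2 difference of -8.21 and -2.38. Of the 13 listed genes 4 were higher and 4 lower there, against 19.2% and 21.5% of all genes. Cdk5r2 had 13 reads in the 2 libraries labelled DKO in serum together and 3361 in WT. In WT cells at 4 days 5 were higher and 6 lower, near the shares of all genes (36.2% and 34.7%). The kinases that phosphorylate lamins and vimentin in mitosis fell furthest among those passing there. Plk1 stood at -6.12, Cdk1 at -5.44 and Aurkb at -6.70. With the miR-138 mimic in serum 5 of 12 were lower and 2 higher (27.3% and 28.7% of all genes), with Rock2 at -0.98 and Aurkb at -0.88 against Cdk5 at 0.73.

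Of the motors listed for filament transport, 8 of 9 genes were measured. In cells labelled DKO 5 were lower and 1 higher in serum, where 21.5% of all genes were lower and 19.2% higher, led by Kif5c (-0.91), Kif5a (-1.57) and Myo5a (-0.42). In WT cells at 4 days 5 were higher and 2 lower, against 36.2% and 34.7% of all genes, with Kif5a, the neuronal kinesin heavy chain, at 2.80, Kif5c at 1.49 and Dync1h1 at 1.17. With the miR-137 mimic all 8 measured were higher, both in serum (median 0.44 against -0.01 over all genes) and at 2 days (0.35 against -0.02), where 23.1% and 20.5% of all genes passed as higher. With the miR-138 mimic 2 were higher and 2 lower in serum, near the 28.7% and 27.3% of all genes. Of the chaperones and ligases that clear filaments, 5 of 7 were measured in the third experiment. With the miR-138 mimic 3 were lower and 1 higher in serum, against 27.3% and 28.7% of all genes, with Hspb8 at -0.71 and Stub1 at -0.41. In WT cells at 4 days 1 of 5 measured was higher and 3 were lower, against 36.2% and 34.7% of all genes (median -0.24 against 0.04). The gene that rose was Trim2, a ligase that acts on the light neurofilament (1.10).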

How the data were processed

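For polyA RNA-seq the authors deposited raw counts of reads per gene. The submitters' processing notes name STAR and mm9; the version of STAR and the annotation were not given in the sources used here. The column of counts for the strand of dUTP libraries was used, after it was checked that the opposite strand held 3.18 to 3.81% of stranded reads. Of 37310 identifiers 32620 (87.4%) matched a symbol. The 6 small RNA libraries were not used here.

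Counts of the 3 experiments were fitted separately in edgeR 4.0.16 (R 4.3.3, limma 3.58.1): filterByExpr with a minimum count of 10 and minimum total of 15, TMM scaling, the two-sided quasi-likelihood test, and Benjamini-Hochberg adjustment over all genes tested at a false discovery rate of 0.05, in 16 comparisons, 3 of them interactions. The standard error of a log2 fold change was taken from the F statistic. The procedure was tested on simulated data. The 10 genes are named throughout. Of each list at most 3 members with the lowest adjusted p are named where the list is described. Genes most alike are the 3 with the highest correlation, computed with a pseudocount of 0.5 CPM. Some genes that these rules cover are not reported here. The genes and lists were chosen with earlier results of these data known. As alternatives the fits were repeated in DESeq2 1.42.0, without the low-count filter, with RLE scaling, with a block for replicate number, on counts of both strands, on the compared libraries alone, and leaving out each library; where this left 1 library in a group, it is assumed to vary like the others. Transcript lengths were not used here, so levels of different genes are not compared. Protein features were planned and not run.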

Additional observations from a re-analysis of the deposited data

Results flagged for a closer look

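A total of 9 changes after serum withdrawal differed between lines or treatments by a test of the difference itself (edgeR's quasi-likelihood test of the interaction, adjusted over all genes). Between cells labelled DKO and WT cells at 1 day, the difference in log2 change was 0.86 for Nefh, 0.69 for Ina and 0.43 for Lmnb2, which changed more in the positive direction in cells labelled DKO, and -0.33 for Vim and -0.39 for Lmna. Nefh and Ina rose in cells labelled DKO from a level that was 92.3-fold and 18.1-fold lower than in WT. In the third experiment, the 2-day change differed from that with pUC19 by 0.54 for Vim with the miR-138 mimic, and by 0.39 for Vim, 0.85 for Lmna and -0.49 for Lmnb2 with the miR-137 mimic. The 2 mimics share the pUC19 libraries.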

How the results depend on the processing

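No called change reversed its direction under any alternative. Of 1375 recomputed gene-level values 1314 kept their side of the threshold, 41 lost it and 20 gained it. The number of genes whose 1-day change differed between the lines, 5 in the reported fit, ranged from 2 to 5 when each library was left out in turn. It was 3 without either WT library in serum, and 2 without the first WT library at 1 day or without either library labelled DKO at 1 day. The number called with the miR-137 mimic in serum, 5 as reported, ranged from 2 to 4, and was 2 without the first miR-137 library. The number whose 2-day change differed with the miR-138 mimic, 1 as reported, was 4 with no low-count filter (1 higher and 3 lower) and ranged from 1 to 4 when libraries were left out, with 4 without the second miR-138 library at 2 days, 3 without the second pUC19 library at 2 days, and 2 without the first pUC19 library at 2 days or the second in serum. The cause was not tested. Deviations of same-numbered libraries from their group means correlated at 0.038 to 0.082 for experiment 1, -0.036 to 0.031 for experiment 2 and -0.24 to 0.149 for experiment 3. These values cannot decide whether replicate numbers paired the libraries. In experiments 1 and 3 the 2 libraries of a group deviate from their mean as mirror images. With the replicate block, Lmnb1 with the miR-137 mimic at 2 days passed (-0.19, adjusted p = 0.0348), and 6 rather than 5 genes were called there; no other call changed under the block. The first experiment's compared pairs fitted alone, or with both strands, gained Lmna at 1 day (adjusted p = 0.0434 and 0.0468). The second experiment holds only its compared groups, so no separate fit of them was made. The third experiment's values for Nefh rest on 1 to 38 reads per library, and Nefl and Nefm had at most 3 and 1 reads there.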
